A study of Mus musculus with 8 samples.

Results

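The purinergic receptors are the cell surface proteins that sense extracellular ATP, other nucleotides and adenosine. They are described here by 10 genes, found by symbol among the 43372 in the deposited table: the ATP-gated channel subunits P2rx2, P2rx3, P2rx4, P2rx5, P2rx6 and P2rx7, the nucleotide receptors P2ry1 and P2ry2, and the adenosine receptors Adora1 and Adora2b. All 10 had counts, and 9 passed the filter on low counts. The libraries came from sensory neurons of mouse dorsal root ganglia (DRG), which lie beside the spinal cord, of strain C57Bl/6. The Sst group (4 libraries, Sst-IRES-Cre mice) carried Cre recombinase at the locus of the peptide gene Sst, and the Trpv1 group (4 libraries, Trpv1-IRES-Cre mice) at the locus of the heat- and capsaicin-gated channel gene Trpv1. All pups received at postnatal day 2 an AAV9 virus with a CAG promoter and a FLEX cassette for eGFP or tdTomato, which Cre switches on, so a neuron was labelled if its Cre locus was active at any time after injection and the virus had reached it. From each mouse, 150 to 250 fluorescent neurons were picked by hand at 3 to 5 weeks of age, both sexes included. No source used here states which fluorescent protein a library carried.

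P2X subunits assemble in threes into cation channels that ATP opens, and P2X3, alone or with P2X2, is the best known of them in pain-sensing neurons. P2Y receptors and adenosine receptors couple to G proteins. Enzymes on the cell surface break ATP down to adenosine, so the same release event can act on all 3 families in turn.

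Library totals spanned 9021125 to 12153109 counts (Sst) and 7419027 to 9568508 counts (Trpv1). Markers of sensory neurons were counted in all 8 libraries. Markers of myelinated sensory neurons summed to 8594 to 14629 CPM in the Sst libraries and to 5530.2 to 6620.2 CPM in the Trpv1 libraries, with 11 of 13 higher. Markers of peptidergic nociceptors summed to 102 to 246 CPM in the Sst libraries and to 2055 to 2912 CPM in the Trpv1 libraries, with 6 of 7 lower (edgeR, adjusted p under 0.05 for each count). The marker not called was Trpv1 itself (log2 fold change, Sst over Trpv1, −0.95, edgeR adjusted p = 0.109). Sst did not pass either (1.07, edgeR adjusted p = 0.0753). Of 11 non-peptidergic nociceptor markers tested, Sst among them, 0 were higher and 2 lower (edgeR). CPM are counts scaled to library size with TMM factors. Trpv1 replicates 1 and 2 had Y-linked counts and no Xist, while the other 6 libraries had Xist and no Y-linked counts. The pituitary genes Gh and Prl held 937 to 11494 counts each in Sst replicate 2 and Trpv1 replicates 1, 2 and 3 and at most 1 in the others. Each library is an average over picked cells, so fewer cells of a type and less RNA per cell cannot be told apart.

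The plainest result was P2ry1, which encodes a receptor for ADP: it was higher in the Sst libraries, with no overlap between groups. P2rx6, a rarer P2X subunit gene, was also higher, but its call was not firm. Most of its reads came from Sst replicate 3, and the Trpv1 libraries held few. Per kilobase of exon, P2rx3 had the highest level of the 10 genes in every library of both groups, and it did not pass the test between them. Adora1 stood lower in every Sst library than in any Trpv1 library and missed the threshold. The promoters of the 3 genes whose groups did not overlap, P2ry1, P2rx6 and Adora1, are shown first: 250 bases that end just before the RefSeq transcription start (GRCm38.p6), 5′ to 3′ on the gene's strand. Capitals mark the letters GGGCGG or CCGCCC, known as a GC box, and TATAAA or TTTATA, the TATA motif.
P2ry1: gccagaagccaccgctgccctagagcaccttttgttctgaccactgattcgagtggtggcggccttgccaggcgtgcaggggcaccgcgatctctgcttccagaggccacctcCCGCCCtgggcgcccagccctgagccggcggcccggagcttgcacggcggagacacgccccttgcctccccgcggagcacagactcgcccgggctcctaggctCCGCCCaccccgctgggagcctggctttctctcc
P2rx6: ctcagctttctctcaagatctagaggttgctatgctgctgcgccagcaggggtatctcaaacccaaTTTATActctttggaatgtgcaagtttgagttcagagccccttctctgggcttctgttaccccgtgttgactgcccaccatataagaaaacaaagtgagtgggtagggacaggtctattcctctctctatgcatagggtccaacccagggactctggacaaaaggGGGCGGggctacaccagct
Adora1: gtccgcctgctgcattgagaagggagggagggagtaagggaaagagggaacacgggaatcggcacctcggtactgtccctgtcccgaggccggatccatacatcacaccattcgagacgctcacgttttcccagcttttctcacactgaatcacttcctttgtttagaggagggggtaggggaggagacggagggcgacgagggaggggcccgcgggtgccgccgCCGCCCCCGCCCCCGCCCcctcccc
The windows lie at chr3:61002535-61002784 (plus strand, P2ry1), chr16:17561635-17561884 (plus strand, P2rx6) and chr1:134235458-134235707 (minus strand, the more distal of 2 Adora1 starts). Those of P2ry1 and Adora1 held 20 and 19 CpG dinucleotides with a GC content of 70.8% and 64.4%, while that of P2rx6 held 3 CpG dinucleotides with a GC content of 50.8%. Over all 32851 promoter windows in the table the medians were 6 CpG dinucleotides and 52.4% GC. GC boxes, read on either strand, began 137 and 34 bases before the start of P2ry1, 25, 19 and 13 bases before that of Adora1 and 19 bases before that of P2rx6. Adjacent boxes of Adora1 share no base, and the window of its other start, chr1:134234857-134235106, held 0 GC boxes. A GC box was found in 32.7% of all windows. The TATA letters occurred once, 184 bases before the P2rx6 start, and in 12.4% of all windows. The Runx letters TGTGGT (14% of all windows) and AAGGTCA, the half-site of estrogen-related receptors (4.08%), were absent from these 3 windows on either strand. Of the 10 genes, 7 had an entry in the promoter table.

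Across all 11828 genes tested, 751 (6.35%) differed between the groups: 360 (3.04%) were higher and 391 (3.31%) lower in the Sst libraries (edgeR quasi-likelihood test, Benjamini-Hochberg adjusted p under 0.05). Of the 9 purinergic receptor genes tested, 2 (22.2%) were higher, 7 did not pass and 0 were lower. At an unadjusted p under 0.05 in edgeR, 3 were higher and 1 was lower. By unadjusted edgeR p over all 11828 genes, rank 2134 stood at 0.0382 and rank 2458 at 0.0519. DESeq2 called 2 higher and 1 lower, and limma voom 1 higher and 0 lower. Over all 11828 genes, DESeq2 called 902 and voom 605 in either direction. The groups did not overlap in 3 of the 9 genes, against 11.1% of all genes tested. The median log2 fold change of the 9 genes, Sst over Trpv1, was −0.21, beside 0.01 over all genes.

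**Figure D1:**
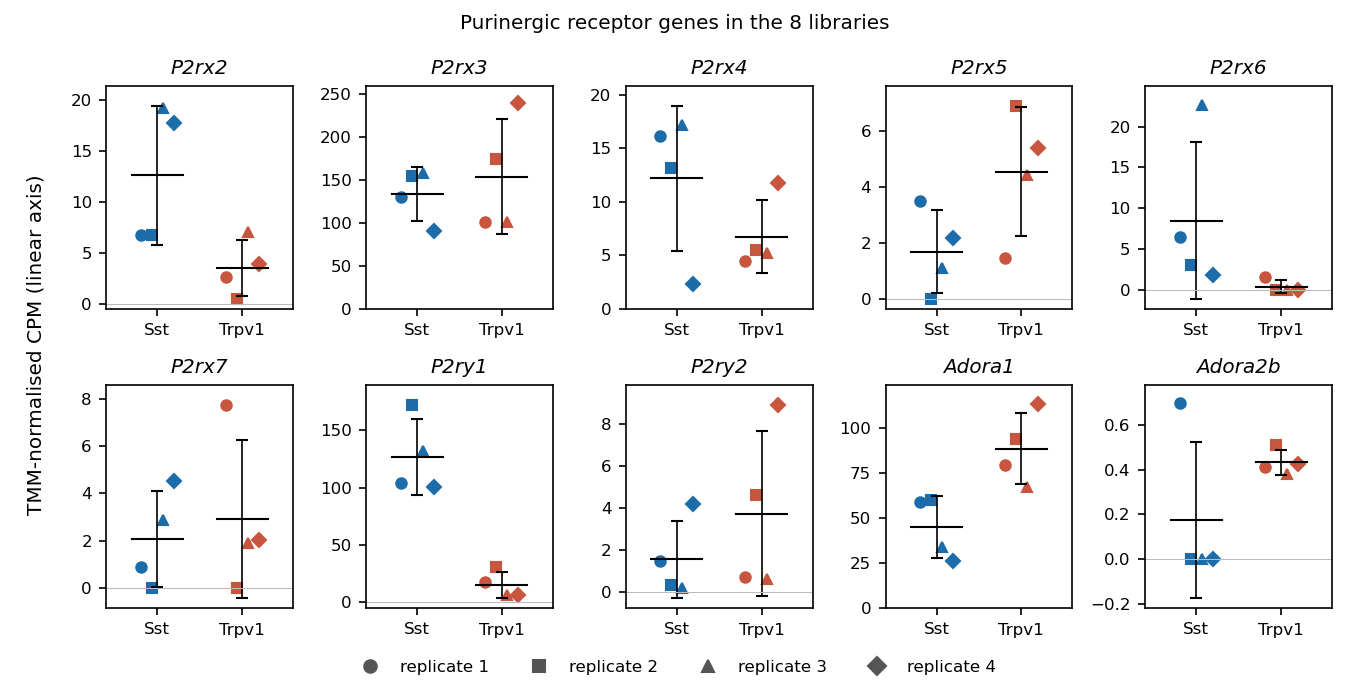
TMM-normalised CPM (linear axis, a scale of its own for each gene) of the 10 purinergic receptor genes, Sst libraries on the left and Trpv1 libraries on the right of each panel; each symbol is a library, the long bar the group mean and the whiskers 1 SD. The groups are apart for P2ry1 (100.8 to 172 CPM in Sst, 6.09 to 30.6 CPM in Trpv1), P2rx6 and Adora1, and overlap for the other 7 genes.

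P2rx3 encodes the P2X subunit most used as a marker of non-peptidergic nociceptors (GRCm38 chromosome 2, 84998583 to 85037462, minus strand). It stood at 129.9, 154.9, 158.2 and 90.9 CPM in Sst replicates 1 to 4, against 100.8, 173.8, 101.4 and 239.3 CPM in Trpv1 replicates 1 to 4. The Sst values lay within a narrower span than the Trpv1 values, and the groups overlapped in part: Trpv1 replicates 2 and 4 stood above every Sst library and Sst replicate 4 below every Trpv1 library. The mean ± SD was 133.5 ± 31.1 CPM over the 4 Sst libraries, against 153.8 ± 66.5 CPM over the 4 Trpv1 libraries, with a log2 fold change of −0.21 ± 0.286 (SE; adjusted p = 0.746, edgeR). Trpv1 replicate 4 held the highest value, and without it the log2 fold change was 0.10 (edgeR adjusted p = 0.886). P2rx3 shares 51 exon bases with Ssrp1 on the opposite strand. The tested genes whose centred log2 CPM lay closest to those of P2rx3 over the 8 libraries were Nlgn2, Fau and Smarcd1, with root mean square differences of 0.146, 0.162 and 0.181 log2 units.

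P2rx2 encodes the subunit that joins P2X3 in slowly desensitising channels (chromosome 5, 110339812 to 110343212, minus strand). Its CPM were 6.77, 6.76, 19.2 and 17.8 in Sst replicates 1 to 4, against 2.69, 0.512, 7.11 and 3.93 in Trpv1 replicates 1 to 4. Sst replicates 3 and 4 were the highest libraries, and Trpv1 replicate 3 stood just above Sst replicates 1 and 2. The mean ± SD was 12.6 ± 6.79 CPM over the 4 Sst libraries, against 3.56 ± 2.76 CPM over the 4 Trpv1 libraries. The log2 fold change of 1.86 (SE 0.721) did not pass (edgeR unadjusted p = 0.0164, adjusted p = 0.131). Over the alternatives it stayed positive, from 1.25 to 2.37, with adjusted p from 0.110 to 0.586.

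P2rx6 encodes a subunit that forms working channels mainly together with other P2X subunits (chromosome 16, 17561885 to 17577800, plus strand). The Sst libraries held 65, 28, 244 and 20 counts in replicates 1 to 4, against 15, 0, 0 and 0 counts in Trpv1 replicates 1 to 4. Sst replicate 3 alone held more reads than the other 7 libraries together. The mean ± SD was 8.49 ± 9.62 CPM over the 4 Sst libraries, against 0.388 ± 0.776 CPM over the 4 Trpv1 libraries, with a log2 fold change of 4.29 ± 1.29 (SE; adjusted p = 0.0463, edgeR). The call was lost without Sst replicate 1 or 3 and without any of the 4 Trpv1 replicates (edgeR adjusted p from 0.0735 to 0.183), and without Sst replicate 3 the log2 fold change was 3.10. Without Trpv1 replicate 1 the Trpv1 group held 0 counts. With that group set at 3 counts in all, the pooled Sst reads, mostly from replicate 3, stood 72.9-fold higher. This limit covers counting error only and leaves out the spread between libraries. The call did not hold in the fit without Trpv1 replicate 1 (edgeR adjusted p = 0.0796). It was also lost with voom and sample weights, without robust dispersions and with a term for Xist (adjusted p = 0.0833, 0.0528 and 0.121), and its adjusted p spanned 0.0225 to 0.522 over the alternatives. Sst replicate 3 also held the highest summed CPM of myelinated neuron markers, 14629 against 8594 to 10956 in the other Sst libraries; the part of those cells in the result was not tested. The tested genes with centred log2 CPM closest to P2rx6 were Sema7a, Kcnk1 and Prokr1, with root mean square differences of 1.03, 1.07 and 1.15 log2 units and log2 fold changes of 2.30, 4.33 and 3.57. P2rx6 shares 554 exon bases with Slc7a4 on the opposite strand, which held 49, 12, 13 and 25 counts in Sst replicates 1 to 4 and 72, 7, 0 and 187 counts in Trpv1 replicates 1 to 4. No source used here gives the strand setting of the counting, and reads from shared bases are therefore uncertain.

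P2rx4 encodes a subunit of ATP-gated channels known in microglia as well as neurons (chromosome 5, 122707544 to 122729738, plus strand). Its CPM were 16.1, 13.2, 17.2 and 2.27 in Sst replicates 1 to 4, against 4.45, 5.50, 5.20 and 11.8 in Trpv1 replicates 1 to 4. Sst replicate 4 was the lowest of all 8 libraries, while the other 3 Sst libraries stood above every Trpv1 library. The log2 fold change was 0.82 ± 0.658 (SE) and did not pass (edgeR adjusted p = 0.529). P2rx5, a subunit gene known in large-diameter sensory neurons, ran the other way, with 3.49, 0, 1.11 and 2.18 CPM in Sst replicates 1 to 4, against 1.45, 6.91, 4.44 and 5.41 CPM in Trpv1 replicates 1 to 4. Sst replicate 1 stood above Trpv1 replicate 1, and the log2 fold change of −1.36 (SE 0.843) did not pass (edgeR adjusted p = 0.387). P2rx7 encodes the subunit of a channel best known in immune cells and glia. It held 9, 0, 31 and 50 counts in Sst replicates 1 to 4, against 75, 0, 15 and 19 counts in Trpv1 replicates 1 to 4 (log2 fold change −0.51 ± 0.934 SE, edgeR adjusted p = 0.818). Its direction changed with the libraries: the log2 fold change was 0.71 without Trpv1 replicate 1 (edgeR adjusted p = 0.792).

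P2rx7 and P2rx4 are known from immune cells, so the macrophage markers are given beside them. All 8 markers found summed to 1.20 to 4.38 CPM in the Sst libraries and to 4.19 to 30.4 CPM in the Trpv1 libraries, and C1qa held 0 counts in every library. Trpv1 replicates 1 and 2 held the most, at 17.0 and 30.4 CPM. In Trpv1 replicate 2 the marker Ptprc alone held 23.7 CPM of that sum. In Trpv1 replicate 1 the marker Cd68 held 6.62 CPM and Csf1r 4.76 CPM. P2rx7 held 75 counts in Trpv1 replicate 1 and 0 in Trpv1 replicate 2. The part of macrophages in the P2rx7 values was not tested. Markers of satellite glia summed to 419 to 809 CPM in the Sst libraries and to 322 to 622 CPM in the Trpv1 libraries. Of 8 tested, 0 passed in edgeR, DESeq2 or voom, and 1 had an unadjusted p under 0.05 in edgeR.

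Levels of different genes were compared per kilobase of merged exons (RPKM). The P2X subunits together stood at 57.7 ± 13.01 RPKM over the 4 Sst libraries, against 59.98 ± 24.2 RPKM over the 4 Trpv1 libraries (mean ± SD). P2rx3 made up 85.1%, 91.3%, 77.5% and 77.7% of this P2X level in Sst replicates 1 to 4, against 90.1%, 94.2%, 86.5% and 93.7% in Trpv1 replicates 1 to 4. P2rx3 thus held most of the P2X level in all 8 libraries. P2rx2 made up 4.32% to 16.5% in the Sst libraries and 0.300% to 6.57% in the Trpv1 libraries. Ratios of P2rx3 to P2rx2 RPKM, by merged exons only, were 4.72 to 21.2 in the Sst libraries and 13.2 to 314 in the Trpv1 libraries. The highest of these ratios, in Trpv1 replicate 2, rests on 4 reads of P2rx2. These shares are descriptions with no test, since the genes were chosen with earlier results known.

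P2ry1 encodes P2Y1, a receptor for ADP that couples to Gq proteins and phospholipase C (chromosome 3, 61002795 to 61008982, plus strand). It held 1043, 1578, 1424 and 1111 counts in Sst replicates 1 to 4, against 169, 239, 48 and 61 counts in Trpv1 replicates 1 to 4. In CPM these were 103.9, 172, 132 and 100.8 in Sst replicates 1 to 4, against 17.5, 30.6, 6.09 and 6.47 in Trpv1 replicates 1 to 4. Every Sst library stood far above every Trpv1 library, and within the Trpv1 group replicates 1 and 2 stood above replicates 3 and 4. The mean ± SD was 127.2 ± 33.0 CPM over the 4 Sst libraries, against 15.2 ± 11.6 CPM over the 4 Trpv1 libraries. The difference was 8.47-fold, with a log2 fold change of 3.08 ± 0.403 (SE; adjusted p = 1.62e-05, edgeR), and P2ry1 ranked 60 of 11828 genes by p-value. The call held in all 19 alternatives, with log2 fold changes from 2.83 to 4.35 and adjusted p from 5.87e-10 to 0.0322.

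Trpv1 replicates 1 and 2, the libraries with Y-linked counts, held the higher P2ry1 values of their group. In the 6 libraries with Xist the Trpv1 mean was 6.28 CPM over 2 libraries, and the log2 fold change was 4.35 (edgeR adjusted p = 0.000105). In the 4 libraries (3 Sst, 1 Trpv1) that held no more than 1 read of either Gh or Prl it was 4.15 (edgeR adjusted p = 0.0322). P2ry1 shares 992 exon bases with the antisense gene Gm37035, whose symbol is absent from the deposited counts. The strand setting of the counting is not given, so reads from either strand of those bases cannot be told apart. Antisense reads may thus be counted under P2ry1. The tested genes with centred log2 CPM closest to P2ry1 over the 8 libraries were Ptpre, Ldhb and Fat3, with root mean square differences of 0.575, 0.594 and 0.651 log2 units and log2 fold changes of 2.75, 2.94 and 3.73. Ldhb, a lactate dehydrogenase subunit gene, is also on the list of myelinated neuron markers; the part of those cells in the P2ry1 result was not tested.

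Per kilobase, P2ry1 was next after P2rx3 in each of the 4 Sst libraries and below both P2rx3 and Adora1 in each of the 4 Trpv1 libraries. The ratio of P2ry1 to P2rx3 RPKM was 0.520, 0.722, 0.542 and 0.721 in Sst replicates 1 to 4, against 0.113, 0.114, 0.0390 and 0.0176 in Trpv1 replicates 1 to 4. P2ry1 made up 26.9% to 36.0% of the summed RPKM of the 10 genes in the Sst libraries and 1.31% to 7.83% in the Trpv1 libraries. P2rx3 made up 45.9% to 51.8% of it in the Sst libraries and 61.9% to 74.5% in the Trpv1 libraries. Mean levels were also put in order, by merged exons only. P2rx3, P2ry1, Adora1, P2rx2, P2rx6, P2rx4, P2rx5, P2ry2, P2rx7 and Adora2b followed each other in the Sst libraries. Among neighbours in that order, the ranges over libraries were apart between P2ry1 and Adora1 and overlapped elsewhere. In the Trpv1 libraries the order was P2rx3, Adora1, P2ry1, P2rx5, P2rx2, P2rx4, P2ry2, P2rx7, Adora2b and P2rx6. There the ranges were apart between P2rx3 and Adora1 and between Adora1 and P2ry1, and overlapped between the other neighbours. The place of a low gene in either order can change with the length used. For P2rx4 the merged exons hold 7025 bases and the longest transcript 3895.

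**Figure D2:**
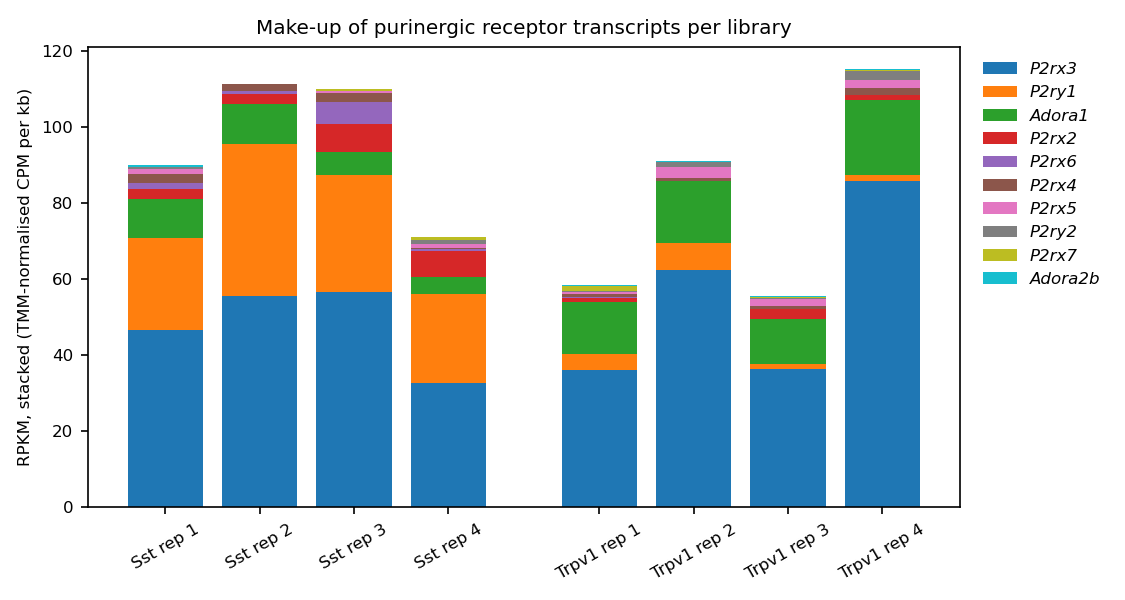
RPKM (TMM-normalised CPM per kilobase of merged exons) of the 10 purinergic receptor genes, stacked for each library, the 4 Sst libraries left and the 4 Trpv1 libraries right. P2rx3 is the largest segment in all 8 bars, and the P2ry1 segment is 26.9% to 36.0% of each Sst bar and 1.31% to 7.83% of each Trpv1 bar.

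P2ry2 encodes P2Y2, a receptor for ATP and UTP. It held 15, 3, 2 and 46 counts in Sst replicates 1 to 4, against 7, 36, 5 and 84 counts in Trpv1 replicates 1 to 4. Each group had high and low libraries, and replicate 4 was the highest in both. The log2 fold change was −1.23 ± 0.954 (SE) and did not pass (edgeR adjusted p = 0.509).

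Adora1 encodes the A1 adenosine receptor, which couples to Gi proteins and is known to dampen transmitter release from sensory neurons (chromosome 1, 134199223 to 134235431, minus strand). Its CPM were 59.0, 60.1, 33.9 and 26.2 in Sst replicates 1 to 4, against 79.6, 94.0, 67.3 and 113.6 in Trpv1 replicates 1 to 4. All Sst values lay under all Trpv1 values. The mean ± SD was 44.8 ± 17.3 CPM over the 4 Sst libraries, against 88.6 ± 19.9 CPM over the 4 Trpv1 libraries. The log2 fold change of −0.996 (SE 0.327) missed the threshold (edgeR adjusted p = 0.0718). DESeq2 called it (−0.998, adjusted p = 0.0455), and over all alternatives the log2 fold change stayed negative, from −1.48 to −0.80, with adjusted p from 0.0455 to 0.326. Adora1 shares 1162 exon bases with Mybph on the opposite strand, which held 0 counts in every library.

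Adora2b encodes the A2B adenosine receptor, which needs more adenosine than A1 does (chromosome 11, 62248984 to 62266453, plus strand). It held 7, 0, 0 and 0 counts in Sst replicates 1 to 4, against 4, 4, 3 and 4 counts in Trpv1 replicates 1 to 4. The Trpv1 values were close to each other and the Sst group had reads in replicate 1 alone. It did not pass the filter, and an exact permutation test of its CPM missed the threshold (two-sided, n = 4 each, p = 0.143, where 0.0286 is the smallest p that 4 against 4 libraries allow). These reads carry no molecular identifiers, so limits from low counts cover counting error only.

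**Figure D3:**
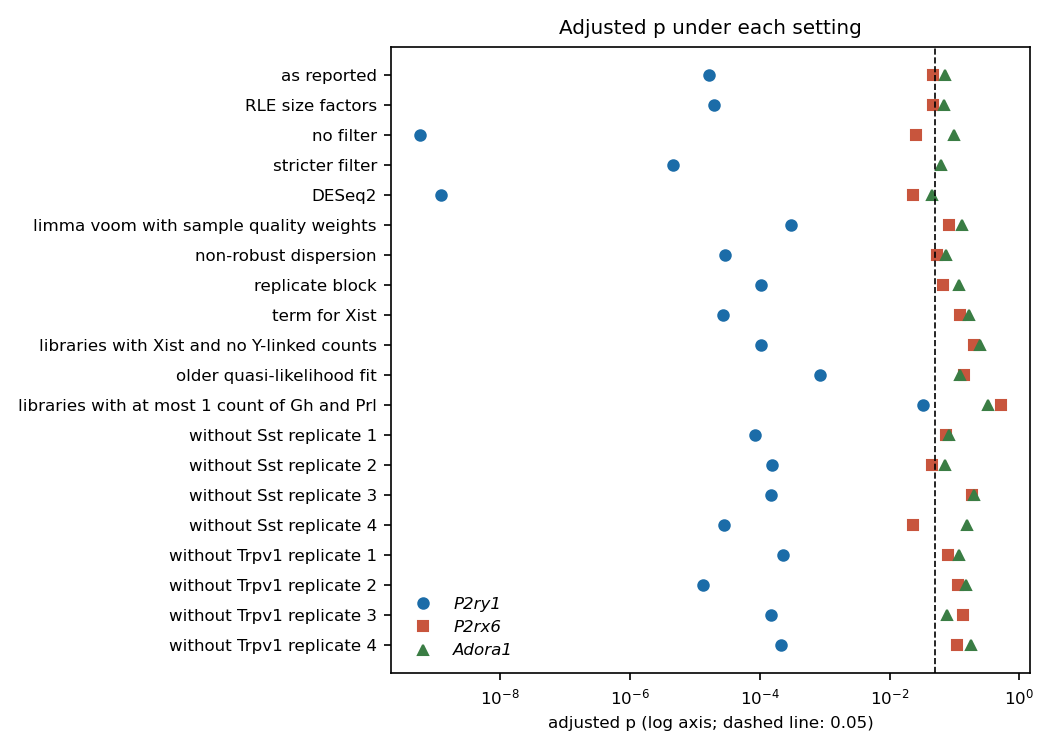
Adjusted p (log axis) of P2ry1, P2rx6 and Adora1 as reported and under each of 19 alternatives; the dashed line marks 0.05, and P2rx6 has no point under the stricter filter, where it was not tested. P2ry1 lies left of the line in every row, from 5.87e-10 to 0.0322, P2rx6 lies left of it as reported and in 5 alternatives, and Adora1 with DESeq2.

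The other genes of purinergic signalling were read from 4 lists with 32 genes: other purinergic receptors, release of ATP, hydrolysis of nucleotides, and handling of adenosine. Of 14 tested, 2 (14.3%) were higher in the Sst libraries, 12 did not pass and 0 were lower (edgeR). Of all genes tested, 3.04% were higher and 3.31% lower. At an unadjusted p under 0.05, 0 of the 14 were lower in edgeR, DESeq2 or voom. Those higher in edgeR numbered 1, 1, 2 and 1 in the 4 lists in the order given. By unadjusted edgeR p over all 11828 genes, in either direction, rank 2134 stood at 0.0382 and rank 2458 at 0.0519. DESeq2 called 2 of them higher and voom 1, against 902 and 605 of all 11828 genes in either direction. The median log2 fold change of the 14 was 0.70, beside 0.01 over all genes.

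The called genes came from the lists on release of ATP (Panx2) and handling of adenosine (Ada). Panx2, a pannexin of the family of large-pore channels that includes the ATP release channel pannexin 1, stood at 30.8, 32.5, 65.2 and 28.2 CPM in Sst replicates 1 to 4, against 17.6, 8.44, 6.73 and 16.1 CPM in Trpv1 replicates 1 to 4. The groups did not overlap, and Sst replicate 3 was the highest (log2 fold change 1.65 ± 0.472 SE, edgeR adjusted p = 0.0362). Ada, adenosine deaminase, which turns adenosine into inosine, stood at 92.6, 61.0, 91.7 and 78.4 CPM in Sst replicates 1 to 4, against 36.3, 40.4, 24.7 and 44.6 CPM in Trpv1 replicates 1 to 4. The groups did not overlap here either (log2 fold change 1.14 ± 0.318 SE, edgeR adjusted p = 0.0303). Neither call was firm: both were lost without Sst replicate 1 or 3 or without Trpv1 replicate 1, 2 or 3, with edgeR adjusted p from 0.0502 to 0.159 for Panx2 and from 0.0506 to 0.100 for Ada. With a term for Xist both were lost too (0.133 and 0.114). The adjusted p spanned 0.00867 to 0.551 for Panx2 and 0.00540 to 0.486 for Ada over the alternatives.

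Among the enzymes that break nucleotides down, the most abundant was Acpp, prostatic acid phosphatase, which makes adenosine from AMP in sensory neurons. It averaged 688.2 ± 86.4 CPM (SD) over the 4 Sst libraries, against 483.5 ± 99.1 CPM over the 4 Trpv1 libraries, a log2 fold change of 0.51 (SE 0.190) that did not pass (edgeR adjusted p = 0.114). Of the 5 genes of that list tested, 0 passed in edgeR, DESeq2 or voom, with 2 higher at an unadjusted p under 0.05 in edgeR. An unadjusted edgeR p of 0.0382 was rank 2134 of all 11828 genes tested. Of the other purinergic receptor genes Adora2a alone, which encodes an adenosine receptor coupled to Gs, passed the filter, with 103, 40, 46 and 1 counts in Sst replicates 1 to 4, against 0, 0, 7 and 21 counts in Trpv1 replicates 1 to 4. Sst replicate 4 lay within the Trpv1 range, and the log2 fold change of 2.51 (SE 1.09) did not pass (edgeR adjusted p = 0.182). Slc17a9, the vesicular nucleotide transporter gene, held 3 counts, all in Trpv1 replicate 3. It was 1 of 8 genes of the lists that held reads and did not pass the filter. Of these, P2ry13 held 123 counts in the Sst libraries, 113 of them in replicate 4, against 1 in the Trpv1 libraries. P2ry12 held 28 counts in the Sst libraries, against 102 in the Trpv1 libraries, 84 of them in replicate 2. In all, 10 genes of the lists, among them P2rx1, P2ry4, Adora3 and the nucleoside transporters Slc28a1, Slc28a2 and Slc28a3, held 0 counts in all 8 libraries, which allows up to 0.272 to 0.384 CPM in each library (3 counts).

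**Figure D4:**
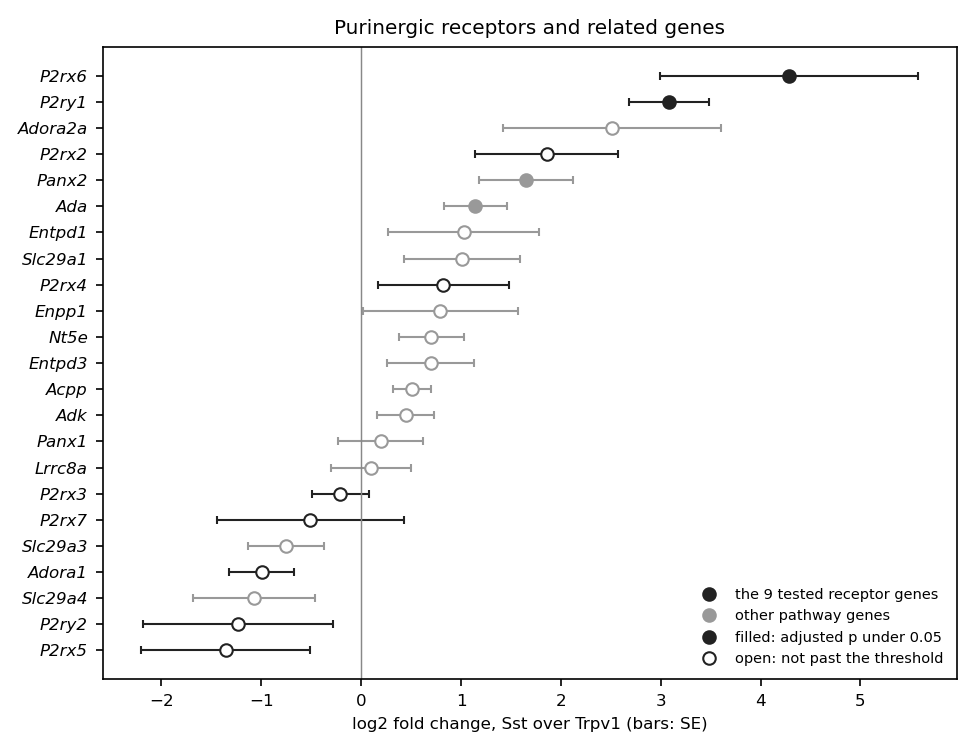
Log2 fold change, Sst over Trpv1, with its SE (bars) for the 9 tested purinergic receptor genes (black) and 14 tested genes of the 4 pathway lists (grey), ordered by size; filled symbols passed at an adjusted p under 0.05 in edgeR. P2rx6 (4.29), P2ry1 (3.08), Panx2 (1.65) and Ada (1.14) are filled, and P2rx3 lies at −0.21.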

How the data were processed

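RNA sequencing was done on 8 samples of hand-picked DRG neurons. Per the labels' protocols, a PicoPure kit gave the RNA, the Ovation RNA-seq System V2 the amplified cDNA and Nextera XT the libraries. The authors deposited a table of raw read counts per gene symbol. Per the submitters' processing notes, bcl2fastq 2.17, Trimmomatic 0.33 and featureCounts on GRCm38 were used; neither aligner nor annotation nor strand setting is given in the sources used here. Column names gave each sample, with 0 columns unused.

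Counts were tested with edgeR 4.0.16 (R 4.3.3): genes kept at a minimum count of 10 by its expression filter, scaling by trimmed mean of M-values (TMM), robust quasi-likelihood F test with adjusted residual degrees of freedom, group as the sole term, two-sided, Benjamini-Hochberg adjustment over all genes tested, threshold 0.05. Standard errors came from the fold change and F. RPKM used merged exons of GENCODE M21 (GRCm38), and log2 CPM a prior count of 2. DESeq2 1.42.0, limma 3.58.1 (voom), other filters and scalings, and leaving out libraries were alternatives. The fit was tested on simulated data, where the share of false calls was above the threshold and most of the changed genes were not called. Each picking session covered both genotypes, per the labels, but no source used here ties a replicate number to a session. The edgeR p-values set the group difference against the spread between these samples, which the fit draws towards a trend over all genes.

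The members, lists and tests were chosen with earlier results of these data known. Named genes were the 10 members, every called pathway gene, the most abundant tested gene of a list with none called, and, for P2rx3 and each called member, the 3 genes of closest profile whose mean log2 CPM reached 3, predicted genes left out. Of the macrophage markers listed, Adgre1 matched no symbol.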

Additional observations from a re-analysis of the deposited data

Results flagged for a closer look

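Each value here lay apart from the other 3 libraries of its group, by a gap over Dixon's 95% critical value. For normally distributed values chance gives this in about 1 in 20 groups, and 28 groups were looked at. Where the other libraries of a group all hold 0, as for P2rx6 and Adora2b, any read is flagged. The rate does not hold there. P2rx4 stood at 11.8 CPM in Trpv1 replicate 4, against 4.45 to 5.50 CPM in the other Trpv1 libraries. P2rx6 stood at 1.55 CPM in Trpv1 replicate 1 and at 0 in the other Trpv1 libraries. Adora2b stood at 0.697 CPM in Sst replicate 1 and at 0 in the other Sst libraries. Panx2 stood at 65.2 CPM in Sst replicate 3, against 28.2 to 32.5 CPM in the other Sst libraries.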

How the results depend on the processing

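P2ry1 kept its call in all 19 alternatives. The count of higher purinergic receptor genes was 1 in place of 2 with the stricter filter, voom, non-robust dispersions, the replicate block, the term for Xist, the 6 libraries with Xist, the older quasi-likelihood fit of edgeR and the 4 libraries with at most 1 count of Gh and Prl, and 1 to 2 when single libraries were left out; the gene lost was P2rx6. The count of lower ones was 1 with DESeq2 (Adora1). Higher pathway genes numbered 1 with voom or the older fit, 0 with the block, the term for Xist, the 6 libraries or the 4 libraries, and 0 to 2 without single libraries. Over all genes 435 were called with the term for Xist, 305 in the 6 libraries, 493 with the older fit, 52 in the 4 libraries (1 Trpv1 library, assumed to vary like the Sst group) and 452 to 747 without single libraries. The older fit and the 4 libraries were chosen after seeing the data. With the replicate number as a block 572 genes were called and the log2 fold change of P2ry1 was 3.19; same-numbered samples deviated from their group means with correlations of −0.0296 to 0.0316, so the numbers do not show pairs, and 1 of 4 Sst samples correlated best with its own number. Without single libraries the log2 fold change ran from −0.36 to 0.10 for P2rx3 and from −1.22 to 0.71 for P2rx7. P2rx7 changed sign to 0.15 with the term for Xist, 0.18 in the 6 libraries, 0.52 in the 4 libraries and 0.71 without Trpv1 replicate 1, and P2rx3 to 0.10 without Trpv1 replicate 4; neither was called in any. By the longest transcript in place of merged exons, the summed P2X level was 86.4 RPKM in the Sst libraries and 90.9 RPKM in the Trpv1 libraries, from shorter lengths. Other causes were not tested. P2rx5, P2rx6, P2rx7, P2ry2 and Adora2a, at low counts, were not tested under the stricter filter, and Adora2b in none of the fits that filter genes.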
